A study of Mus musculus with 23 samples.

Results

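Immature neuron and neurogenesis genes were followed in the hippocampus of middle-aged and young mice through 10 genes, Dcx, Sox4, Sox11, Elavl4, Neurod1, Stmn1, Dpysl3, Ccnd2, Marcksl1 and Nnat. They were chosen by name, as every probe set whose annotated symbol is one of them, which gave 13 probe sets of 12422 non-control probe sets on the array. Whole hippocampi were taken from male C57BL/6JNIA mice, 23 in number, 14 aged 15 months and 9 aged 2 months, with 1 Affymetrix array per mouse. Every mouse of both ages had gone through training in the Morris water maze, where mice learn the place of a platform, and none of the labels names a transgene, a drug or an untrained group. Set against each other, the ages show which of these genes differ between middle-aged and young hippocampus.

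The dentate gyrus of the rodent hippocampus goes on making granule neurons in adult life. Neural stem cells give dividing progenitors, these give neuroblasts that carry the microtubule protein doublecortin, and the neuroblasts grow into granule neurons while they shed the genes of the immature stage. Neurogenesis is known to decline with age in rodents. Cells of this lineage are a small part of the hippocampus, and several of the 10 genes are also expressed by mature neurons or glia, so in RNA of a whole hippocampus fewer such cells and less RNA per cell cannot be told apart. The 15-month hippocampus had a lower mean than the 2-month hippocampus for all 13 probe sets, by up to 0.48 on the log2 scale. Of all non-control probe sets 55.2% had an estimate below 0. None of the 10 probe sets bright enough to be tested passed the test across the array.

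The values are MAS5 signals, a brightness on a linear scale that has no common unit between probe sets, so levels are compared between mice for 1 probe set at a time. The summed signals of marker lists given further on mix probe sets and follow the brightest of them. Differences are of log2(signal + 16), 15-month minus 2-month, and 10 of the 13 probe sets, for 9 of the 10 genes, were above the signal of 91.7 that a probe set needed, on average over all arrays, to be tested with limma among 7453 probe sets. The dimmer probe sets of Sox11 and Stmn1 and the only probe set of Ccnd2 were too dim, with mean signals up to 58.3. The median signal of an array was 155 to 188. None of 5 array measures differed between the ages in an exact two-sided permutation test, with 0.222 as the lowest p. The array from 15-month replicate 13, was unlike the rest: its correlations with them had a median of 0.947, against 0.967 for the next lowest array, and its 25th percentile of signal was 53.6. The regions of the hippocampus were represented by Calb1 of dentate granule cells (1294 ± 194 at 15 months and 1449 ± 106 at 2 months, SD, n = 14 and 9), Wfs1 of field CA1 (1688 ± 239 and 1812 ± 363) and Bok of field CA3 (1443 ± 282 and 1664 ± 287). Prox1, the defining transcription factor of dentate granule cells, was too dim to be tested, at 88.4 ± 28.6 at 15 months and 92.7 ± 37.1 at 2 months.

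Elavl4, Sox11 and Sox4 had the lowest p-values of the set. The sequences around their start sites are shown for that reason, as a description. Sox4 and Sox11 are close relatives, and their differences had the same sign, as had those of all 13 probe sets. The promoter windows come from RefSeq in the build GRCm38.p6 and were read for 7 of the 10 genes, with 11 windows in all. Stmn1 and Ccnd2 had no entry, and Dpysl3 was left out of the windows read. Each window runs 5′ to 3′ on the strand of the gene, from 250 bases before the start site to 50 after it. Capitals mark matches on either strand to any of 6 short motifs: CCAAT, the E-boxes CAGCTG and CAGATG, the Sox-type cores ACAAAG and ACAATG, and TATAAA. The Sox11 window lies on the minus strand at chr12:27342669-27342968, that of Sox4 on the minus strand at chr13:28953650-28953949, and the Elavl4 window, 1 of 4 for that gene and shown for its adjoining E-boxes, on the minus strand at chr4:110287462-110287761.
Sox11: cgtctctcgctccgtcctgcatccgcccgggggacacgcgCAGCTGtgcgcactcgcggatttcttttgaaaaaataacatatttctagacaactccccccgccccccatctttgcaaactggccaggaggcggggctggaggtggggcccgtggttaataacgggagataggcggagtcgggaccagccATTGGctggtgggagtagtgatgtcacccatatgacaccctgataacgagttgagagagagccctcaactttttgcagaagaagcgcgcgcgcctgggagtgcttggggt
Sox4: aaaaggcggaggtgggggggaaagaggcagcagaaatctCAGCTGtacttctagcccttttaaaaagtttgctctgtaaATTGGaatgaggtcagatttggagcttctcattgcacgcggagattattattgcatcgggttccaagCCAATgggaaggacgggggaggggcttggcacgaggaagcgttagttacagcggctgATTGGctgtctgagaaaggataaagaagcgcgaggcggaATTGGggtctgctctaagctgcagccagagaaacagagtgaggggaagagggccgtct
Elavl4: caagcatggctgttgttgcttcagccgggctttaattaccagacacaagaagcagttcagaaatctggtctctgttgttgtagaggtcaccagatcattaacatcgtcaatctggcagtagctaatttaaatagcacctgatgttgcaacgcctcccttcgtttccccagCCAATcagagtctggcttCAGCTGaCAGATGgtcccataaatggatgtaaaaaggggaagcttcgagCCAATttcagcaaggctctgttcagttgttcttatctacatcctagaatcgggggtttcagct
The windows of Sox11 and Sox4 each held 1 CAGCTG box, at positions -210 and -211 from the start site, a motif present in 16.3% of all 32851 windows of the table. CCAAT was found 1 time in the Sox11 window and 4 times in that of Sox4, and occurs in 37.4% of all windows. In the Elavl4 window CAGCTG at -62 was followed by CAGATG at -55, a motif found in 17.2% of all windows. Over the 7 genes, 5 held CCAAT in at least 1 window and 3 held CAGCTG, which is 8 and 4 of their 11 windows. Some windows of Elavl4 and of Dcx overlap, so the same site can count in more than 1 window. Each of the other motifs was held by 1 gene of the 7, and among all windows ACAAAG occurs in 18.7%, with ACAATG found in 12.6% and TATAAA in 13.6%. These are matches of letters, and no binding was measured.

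The SoxC transcription factors Sox4 and Sox11, which act in newborn neurons as they leave the progenitor state, both had lower means at 15 months. Sox11 had signals from 142.5 to 426.4 with a median of 272 in the 15-month mice, against 243.8 to 454.5 with a median of 396 in the 2-month mice. The groups overlapped, with 6 of the 14 mice of 15 months below the lowest 2-month mouse and 3 of the 9 young mice above the highest 15-month mouse. Replicates 6, 11, 13 and 14 of 15 months were lowest, at 142.5 to 171.3, while replicates 7 and 10 of the same age, at 412.5 and 426.4, lay near the top of the 2-month range. The mean was 278 ± 101 (SD, n = 14) at 15 months and 378 ± 71.7 (SD, n = 9) at 2 months, a log2 difference of -0.48 ± 0.18 (SE; 95% interval -0.85 to -0.12; limma adjusted p = 0.255). Of all tested probe sets 0.403% had a lower estimate. The second Sox11 probe set, which by its suffix may also read related sequences, was dim, at 46.3 ± 20.9 and 59.4 ± 27.3, with a difference of -0.27 (interval -0.69 to 0.14) in the fit without the filter.

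Both Sox4 probe sets were bright enough. The brighter one ranged from 269.7 to 671.6 with a median of 410 at 15 months, against 373.7 to 633.5 with a median of 528 at 2 months. Of the 14 mice of 15 months 4 lay below the lowest 2-month mouse and 1, replicate 6, above the highest. Its log2 difference was -0.28 ± 0.12 (SE; 95% interval -0.52 to -0.04; limma adjusted p = 0.324). The dimmer one ranged from 112.4 to 260.8 with a median of 174 at 15 months, against 201.4 to 256.9 with a median of 215 at 2 months. The 2-month mice were close together, with an SD of 0.10 on the log2 scale against 0.32 at 15 months, and 9 of the 14 mice of 15 months lay below all of them and 1 above. Its log2 difference was -0.29 ± 0.11 (SE; 95% interval -0.52 to -0.06; limma adjusted p = 0.276). The estimates of both probe sets were thus of one size, while no correlation between their values in single mice was detected. With the age means subtracted, Pearson's r between the Sox4 probe sets was 0.26 over 23 mice and Spearman's rho 0.12 (permutation p = 0.270 and 0.588, Benjamini-Hochberg adjusted over the 3 genes with 2 probe sets 0.405 and 0.588), and r was -0.21 without the 2 mice farthest from the median.

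Neurod1, a basic helix-loop-helix factor needed for granule neurons to form and survive, did not pass the test. Its signals were 80.6 to 186.8 with a median of 140 at 15 months, against 129.9 to 216.2 with a median of 175 at 2 months. The ranges overlapped widely, although 6 of the 14 mice of 15 months were below the lowest 2-month mouse. The log2 difference was -0.21 ± 0.12 (SE; 95% interval -0.46 to 0.04; limma adjusted p = 0.506).

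Elavl4, which encodes the neuronal RNA-binding protein HuD that stabilises transcripts of differentiating neurons, had the lowest p of the set. Its signals were 150.4 to 254.7 with a median of 204 in the 15-month mice, against 209.5 to 367.9 with a median of 240 in the 2-month mice. In 9 of the 14 mice of 15 months the signal was below that of every 2-month mouse, while 3 of the 9 young mice exceeded every 15-month mouse. The mean was 199 ± 35.2 (SD, n = 14) at 15 months and 259 ± 53.1 (SD, n = 9) at 2 months. The log2 difference was -0.35 ± 0.11 (SE; 95% interval -0.57 to -0.13), below the 2-month mean in 13 of 14 mice, with a limma adjusted p = 0.168. Of all tested probe sets 1.89% had a lower p.

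**Figure D1:**
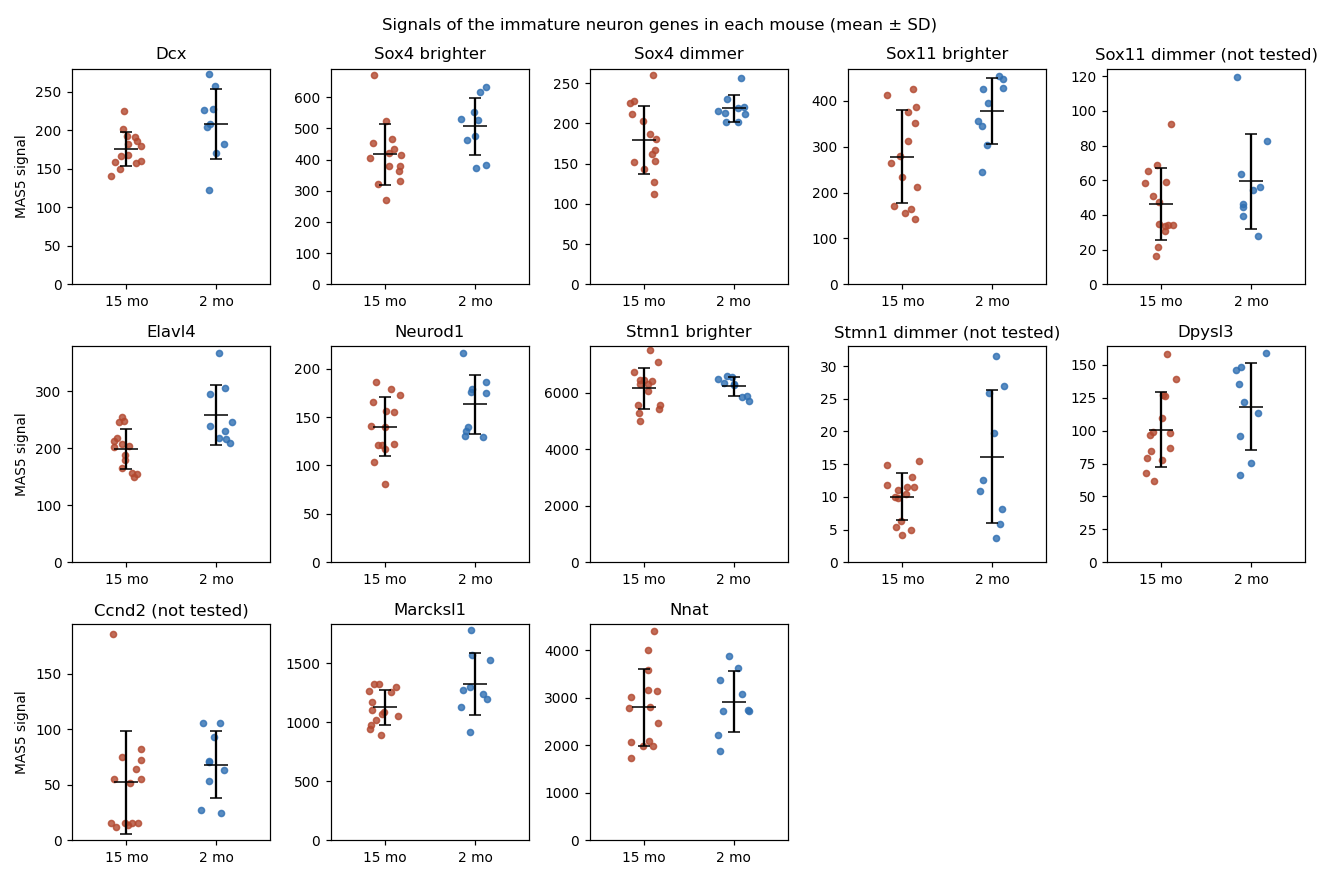
MAS5 signal of each mouse (points) for the 13 probe sets, 15-month mice in red on the left and 2-month mice in blue on the right, with mean and SD as bars (n = 14 and 9). The ages overlap in every panel, and the separation is widest for Elavl4 and the dimmer Sox4 probe set, where 9 of 14 mice of 15 months lie below all 2-month mice.

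None of the cytoskeletal genes passed the test. Dcx, whose protein doublecortin steadies the microtubules of migrating neuroblasts, had signals of 141 to 224.7 with a median of 174 at 15 months, against 123.1 to 272.8 with a median of 208 at 2 months. All 14 mice of 15 months lay within the 2-month range, while 4 of the 9 young mice exceeded the highest of them and 2-month replicate 8 was the lowest mouse of all. The log2 difference was -0.20 ± 0.11 (SE; limma adjusted p = 0.434). Its 95% interval, on signal + 16, ran from -25.4% to 0.887%. Leaving out 1 mouse at a time moved the log2 difference between -0.29 (without 2-month replicate 8, limma adjusted p = 0.170) and -0.16 (without 2-month replicate 6, adjusted p = 0.576).

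Marcksl1, a membrane-bound substrate of protein kinase C that binds actin, did not pass the test. It was at 895.1 to 1323.4 with a median of 1095 in 15-month mice and at 919.4 to 1786.6 with a median of 1271 in 2-month mice. Of the 9 mice of 2 months 3 were above every 15-month mouse and 2-month replicate 3, at 919.4, was near the bottom of the 15-month range. The log2 difference was -0.22 ± 0.09 (SE; 95% interval -0.41 to -0.03; limma adjusted p = 0.329).

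Dpysl3, a collapsin response mediator protein that acts in growth cones, was at 61.6 to 158.5 with a median of 97.3 at 15 months and at 66 to 159.1 with a median of 122 at 2 months. The ranges were almost the same, and the log2 difference was -0.19 ± 0.15 (SE; 95% interval -0.51 to 0.12; limma adjusted p = 0.635). Stmn1, which encodes the microtubule-destabilising protein stathmin and is expressed in many neurons, was measured by its main probe set at 4999.5 to 7503.4 with a median of 6290 at 15 months and at 5684 to 6578 with a median of 6310 at 2 months. Its log2 difference was -0.02 ± 0.06 (SE; 95% interval -0.15 to 0.10; limma adjusted p = 0.893), which is -9.74% to 7.20% on signal + 16. Mice of 15 months lay on both sides of the narrower 2-month range, 5 below it and 3 above it. A second Stmn1 probe set had signals of 3.7 to 31.6 over all mice and gives no usable level.

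Ccnd2, the D-type cyclin used by dividing progenitors of the dentate gyrus, was too dim to be tested. It was at 12 to 185.2 with a median of 53.4 at 15 months and at 24.3 to 105.5 with a median of 70.0 at 2 months. In 6 of the 14 mice of 15 months it lay between 12 and 15.8, below every 2-month mouse, and the highest value of either age was that of 15-month replicate 13, the array that stood apart. The difference was -0.47 (interval -1.10 to 0.16; limma adjusted p = 0.660 in the fit without the filter). The other D-type cyclins were tested, and their estimates were above 0, at 0.18 ± 0.10 for Ccnd1 (SE; limma adjusted p = 0.462) and 0.14 ± 0.14 for Ccnd3 (adjusted p = 0.721). Nnat, an imprinted gene of the developing brain whose product is a small membrane protein, varied among mice of both ages. It was at 1733.2 to 4414.4 with a median of 2798 at 15 months and at 1886.7 to 3880.3 with a median of 2750 at 2 months, by a probe set that may read several transcripts, going by its suffix, a log2 difference of -0.08 ± 0.15 (SE; 95% interval -0.39 to 0.23; limma adjusted p = 0.860).

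Read together, none of the 10 tested probe sets was called at a false discovery rate of 0.05, against 0.376% of all tested probe sets, 28 in number, and 0.0403%, 3 in number, with the lower level at 15 months. At an unadjusted p under 0.05 there were 5, all with the lower mean at 15 months (Sox11, both of Sox4, Elavl4 and Marcksl1), where 6.51% of all tested probe sets were low and 12.4% differed in either direction. The Mann-Whitney test with the same adjustment also called 0 of the 10. Estimates below 0 were found for 10 of 10, against 55% of all tested probe sets, and the median difference was -0.21, against -0.02 over all tested. In 0 of 10, and in 0% of all tested probe sets, was every 15-month mouse below every 2-month mouse. The 10 genes were named with earlier results of these data known, so their shared sign is a description.

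**Figure D2:**
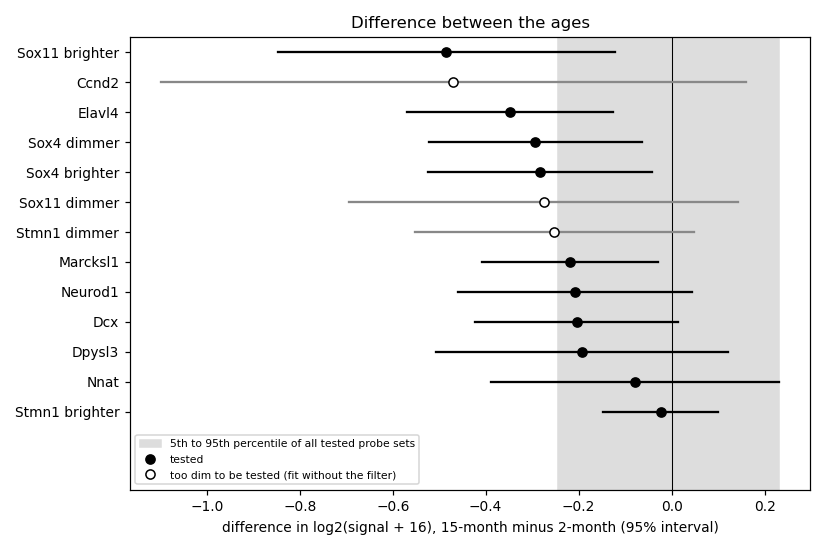
Difference in log2(signal + 16), 15-month minus 2-month, with its 95% interval for the 13 probe sets, filled where tested and open where too dim, over a grey band from the 5th to the 95th percentile of all tested probe sets (-0.25 to 0.23). All 13 estimates are below 0, against 55.2% of all non-control probe sets. Among the tested ones the brighter Sox11 probe set, Elavl4 and both Sox4 probe sets lie left of the band.

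Which genes were low differed among the 15-month mice. For each mouse the log2 values of the 9 tested genes, 1 probe set per gene, were set against their 2-month means and averaged. That average was -0.39 to -0.10 with a median of -0.25 in the 15-month mice, and -0.17 to 0.08 with a median of 0.01 in the 2-month mice. The lowest 2-month mouse, replicate 9, at -0.17, lay within the 15-month range, above 11 of its 14 mice. Of the 9 genes, 5 to 9 were below the 2-month mean in a 15-month mouse and 3 to 7 in a 2-month mouse. Only 15-month replicate 11, at -0.39, was below the mean for all 9.

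**Figure D3:**
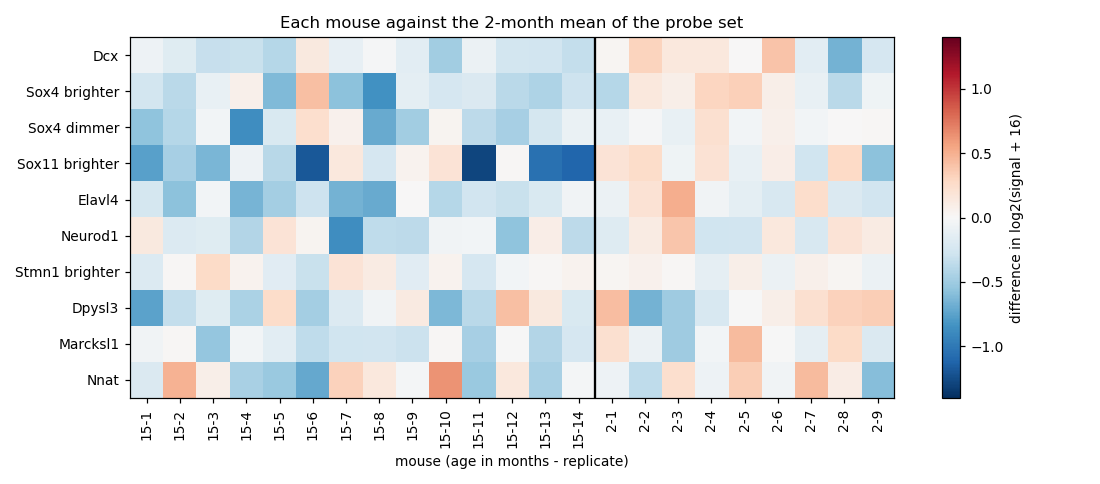
Difference of each mouse (columns, 15-month mice left of the line and 2-month mice right of it) from the 2-month mean in log2(signal + 16), for the 10 tested probe sets (rows), with blue for lower and red for higher. The dark blue cells of Sox11 are in 15-month replicates 6, 11, 13 and 14. The lowest mouse of the other rows varied. It was 15-month replicate 8 for the brighter Sox4 probe set, replicate 7 for Neurod1 and replicate 6 for both Stmn1 and Nnat.

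Within an age, no pair of the genes had a correlation that passed the test. Over the 45 pairs of genes, each with its brightest probe set and the age means subtracted, Pearson's r ran from -0.53 to 0.57 with a median of -0.07, and 19 pairs were above 0. None passed the permutation test after Benjamini-Hochberg adjustment over the 45 pairs. The unadjusted p was under 0.05 for 6, among them Ccnd2 with Nnat (r = -0.51), which rests on the dim Ccnd2 probe set. The largest was Stmn1 with Nnat (r = 0.57, rho = 0.60, permutation p = 0.00791 and 0.00549, adjusted p = 0.184 and 0.124, n = 23, r = 0.52 without the 2 farthest mice). Sox4 and Dpysl3 ran against each other (r = -0.52, rho = -0.61, permutation p = 0.0120 and 0.00306, adjusted p = 0.184 and 0.124, r = -0.55 without the 2 farthest mice). The same was seen for Elavl4 and Marcksl1 (r = -0.53, rho = -0.49, permutation p = 0.0122 and 0.0216, adjusted p = 0.184 and 0.243, r = -0.39 without the 2 farthest mice). For Sox4 and Sox11 r was -0.26 and rho -0.16 (permutation p = 0.275 and 0.471, adjusted p = 0.443 and 0.661, r = -0.04 without the 2 farthest mice).

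**Figure D4:**
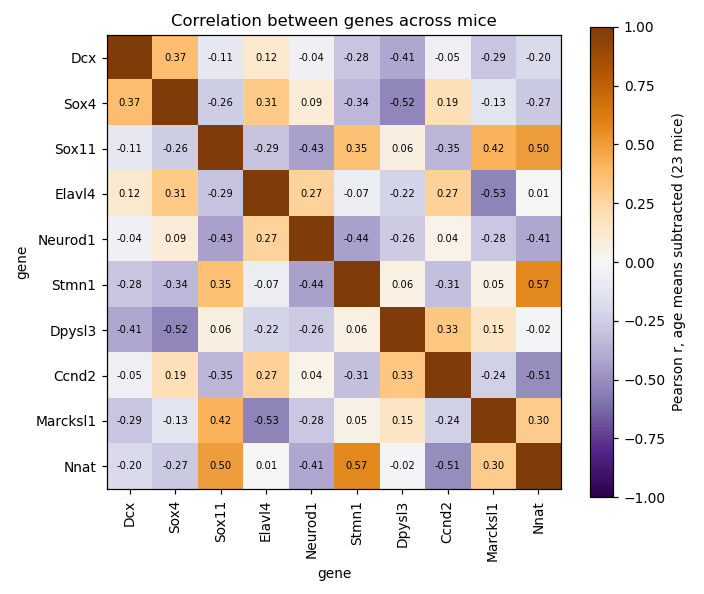
Pearson's r between pairs of the 10 genes over 23 mice, with the mean of each age subtracted, from -1 in purple to 1 in orange. Positive and negative cells are mixed, from -0.53 (Elavl4 with Marcksl1) to 0.57 (Stmn1 with Nnat). The cells of Ccnd2 rest on signals near background.

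The genes whose pattern over the 23 mice was most like each of them, again with age means subtracted and among tested probe sets with 1 symbol, are given as a description, since they were the best of 6756 probe sets and share the arrays. For Sox11 they were Slc5a6, a vitamin transporter (r = 0.74), Fam117a (0.74) and Ptch1, the receptor of hedgehog ligands (0.73). For Sox4 they were Klf13 (0.74), Ptpn1 (0.72) and Cyp4a12b (0.70), and for Elavl4 Dnaja2 (0.66), the dynein regulator Ndel1 (0.65) and Etf1 (0.65). Dcx was most like Cnot2 (0.74), Slc25a4 (0.72) and Trim21 (0.71), and Neurod1 most like Lmo2, Hypk and Col4a2 (0.71, 0.71 and 0.70). For Stmn1 they were the ephrin gene Efnb2 (0.82), Rbp4 (0.78) and Tpbg (0.74), and for Nnat Resp18 (0.78), Agt (0.76) and Cyb5r3 (0.75). For Marcksl1 they were Sdhaf1, H2ax and Bri3 (0.73 each), and for Dpysl3 Pygm (0.74), Nr2f2 (0.69) and Pdia3 (0.68). For Ccnd2, whose signals were near background, they were Bag6 (0.74), Ap2m1 (0.70) and Fignl1 (0.69). None of the 10 genes appears in these lists, and none of the genes in them passed the test between the ages.

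Other genes of the lineage were read from lists that leave the 10 out. Of 22 tested genes of the immature neuronal cytoskeleton and adhesion none passed, and 15 had estimates below 0 with a median of -0.10. Tmsb10, an actin-binding thymosin, was at 2635 ± 429 at 15 months and 3086 ± 243 at 2 months (log2 difference -0.24, limma adjusted p = 0.255), and Pafah1b1, the dynein partner Lis1 that works in neuronal migration, was at 4702 ± 817 and 4047 ± 495 (0.20, adjusted p = 0.361). Of 12 transcription factors of the granule lineage none passed and 6 had estimates below 0, with a median of 0.00. Their lowest p-values were those of Nfia (0.55 ± 0.22, limma adjusted p = 0.289), higher than the 2-month mean in 14 of 14 mice, and Klf9 (0.17 ± 0.10, adjusted p = 0.510).

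Of 14 genes of neural stem cells and radial glia none passed, with 8 estimates below 0 and a median of -0.02. Notch1, a receptor that helps to keep neural stem cells undifferentiated, was at 398 ± 110 at 15 months and 545 ± 119 at 2 months (log2 difference -0.48 ± 0.18, limma adjusted p = 0.258), lower than the 2-month mean in 13 of 14 mice, and Prom1, a stem cell surface protein, at 277 ± 50.6 and 332 ± 60.3 (-0.25, adjusted p = 0.371). Of 17 tested genes listed for dividing cells none passed either, with 9 estimates below 0 and a median of -0.02. The beta-tubulin Tubb5 (8785 ± 577 at 15 months and 9632 ± 668 at 2 months) and the cyclin-dependent kinase Cdk4 (1031 ± 95.9 and 1155 ± 83.7) had the lowest p, at adjusted p = 0.240 and 0.242 in limma. Neither is particular to dividing cells. A further 12 genes of that list, among them the proliferation markers Mki67, Top2a and Cdk1, were too dim to be tested, as were Eomes and Neurog2 of intermediate progenitors.

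Relatives of the 10 genes gave no call among 18 tested, with 10 estimates below 0 and a median of -0.02. Sox9, Sox12, Dpysl5, Dclk1 and Dclk2 had no probe set with 1 symbol on the array, so no relative of Dcx was read. Beside Elavl4, the log2 differences were 0.01 for Elavl1, -0.04 for Elavl2 and 0.07 for Elavl3. Of the other Sox genes, none of them a SoxC gene, Sox1 was at 0.20, Sox2 at -0.15, Sox3 at 0.01 and Sox10 at -0.17. Neurod2 was at -0.01 and Neurod6 at -0.19. Of the other stathmins, Stmn2 was at -0.11, Stmn3 at -0.08 and Stmn4 at 0.03. Of the relatives of Dpysl3, Crmp1 was at -0.13, Dpysl2 at -0.17 and Dpysl4 at 0.04, and Marcks, the relative of Marcksl1, was at -0.06. How the relatives differ from the 10 genes was not tested. Of 13 imprinted genes beside Nnat none passed, with a median of 0.01, the lowest p being that of Dlk1 (-0.16, limma adjusted p = 0.502) and Igf2 (0.36, adjusted p = 0.594).

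Markers of other cells were read on the same arrays. Their summed signals are led by the brightest genes of each list and do not measure the amount of a cell type. Of 12 microglia markers 5 rose at 15 months (Ctss by 0.50, Ly86 by 0.62, Mpeg1 by 0.55, C1qb by 0.33 and C1qc by 0.31 on the log2 scale, limma adjusted p = 9.34e-06 to 0.0223), and their summed signal was 10425 to 12785 in the 15-month mice and 8106 to 10416 in the 2-month mice. Of 10 astrocyte markers S100b rose (by 0.43, adjusted p = 0.0128; summed signal 30452 to 49648 at 15 months and 32607 to 42724 at 2 months), of 10 endothelial markers Slc2a1 (by 0.55, adjusted p = 0.0220; 3338 to 5740 and 2852 to 4136) and of 13 interneuron markers the neuropeptide gene Npy (by 0.34, adjusted p = 0.0159; 27239 to 32554 and 26074 to 31066). Those with the next lowest p, Gfap of astrocytes (0.45, limma adjusted p = 0.0851), Cdh5 of endothelium (0.48, adjusted p = 0.214) and Calb2 of interneurons (-0.23, adjusted p = 0.326), did not pass. Of these lists 0 microglia, 1 astrocyte, 3 endothelial and 7 interneuron markers had estimates below 0, with medians of 0.28, 0.12, 0.07 and -0.004. The microglia genes Csf1r, Cx3cr1 and Cd68 differed little, at 0.01, 0.01 and 0.02. Tie1 and Kdr of endothelium were at -0.30 and -0.27, and Aqp4 of astrocytes at -0.15. None of 6 dentate granule cell markers passed, but 5 had estimates below 0, with a median of -0.10 and a summed signal of 3311 to 5134 at 15 months and 3869 to 4874 at 2 months. The lowest p was that of Sipa1l2, at 892 ± 116 and 1072 ± 127 (log2 difference -0.26, limma adjusted p = 0.138), followed by Calb1 (-0.17, adjusted p = 0.355). With the mean of the dentate markers in the model the differences were -0.49 for Sox11, -0.36 for Elavl4, -0.22 and -0.32 for the brighter and dimmer Sox4 probe sets, -0.18 for Dcx, -0.18 for Neurod1, -0.18 for Marcksl1, -0.21 for Dpysl3, -0.09 for Stmn1 and -0.17 for Nnat, and none passed (lowest limma adjusted p = 0.248, for Elavl4). Whether the rises of the called microglial and astrocyte markers have a part in the differences of the 10 genes was not tested.

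None of the tested genes of the fields CA1 (5, median -0.03) and CA3 (4, median -0.12), of oligodendrocytes (10, median -0.08) and their progenitors (4, median -0.01), of thalamus and habenula (10, median -0.06), of striatum (2, median -0.03) or of subventricular zone neuroblasts (8, median -0.11) passed. Their lowest p-values belonged to Ccn3 and Wfs1 in CA1 (-0.19 and -0.08), Homer3 and Bok in CA3 (-0.21 each), Mog and Ugt8a in oligodendrocytes (-0.23 and -0.40), and Calb2 and Th among the neuroblast markers (-0.23 and -0.32). In oligodendrocyte progenitors they were those of Ptprz1 (0.28) and Sox10 (-0.17), in striatum of Penk (0.23) and Drd2 (-0.29), and in thalamus and habenula of Nr4a2 (-0.33) and Calb2 (-0.23). The lowest limma adjusted p among these genes was 0.198, for Penk. No choroid plexus marker passed of 7, all with estimates above 0 and a median of 0.20, the lowest p being those of Folr1 (0.77) and Igf2 (0.36), and their summed signal ran from 2238 to 20571 at 15 months and from 2663 to 18108 at 2 months. No marker in these lists had a signal of 0 on any array.

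**Figure D5:**
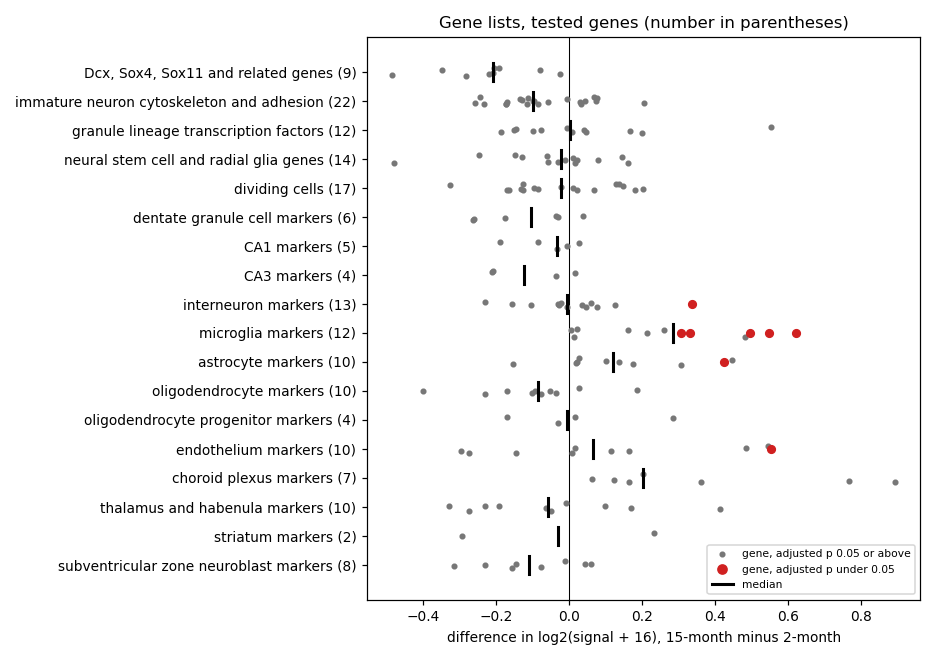
Difference in log2(signal + 16), 15-month minus 2-month, of each tested gene (points, red where the limma adjusted p is under 0.05) with the median of each list (black bar) and the number of tested genes in parentheses. The 9 genes of the top row have the lowest median, -0.21, and the microglia list the highest, 0.28.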

How the data were processed

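The deposited values are intensities, 1 MAS5 signal per probe set and array per the submitters' processing notes, its version being not given in the sources used here. After trimming 2% at each end the mean was 500.3 on every array, so no further normalisation was applied. No scanner file or detection call was used.

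Gene names came from the platform annotation, in which 10833 of 12422 non-control probe sets had 1 symbol, and were checked by Entrez identifier against the RefSeq table of GRCm38.p6, with 0 symbols updated. Signals were taken as log2(signal + 16), which understates changes of dim genes. Probe sets with a mean log2 value past the 40th percentile entered limma (version 3.58.1, under R 4.3.3; lmFit, with trend and robust both on in eBayes). The tests were two-sided, with p-values adjusted by Benjamini-Hochberg over all 7453 and a false discovery rate of 0.05. The fit was checked on simulated data. Correlations used 100000 permutations within age, and array measures all 817190 regroupings (Python 3.11.15, numpy 2.4.6, scipy 1.17.1, pandas 2.3.3, matplotlib 3.10.9).

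Groups came from the labelled ages. Titles of the young and the older mice carry separate number ranges. Whether these numbers mark handling order is not stated, and if they do, handling order and age cannot be told apart. The labels name no batch or pairing. The labels call the mice biological replicates. The 10 genes, the gene lists and the alternatives were chosen with earlier results of these data known. Named genes were the 10 genes with every probe set, of each list those past the threshold and the 2 of lowest p, the relatives, and the 3 most alike genes. Each list gene stood for its brightest probe set. Proliferation and progenitor markers named as too dim, and Prox1, Wfs1 and Bok, were added as checks. The glial and endothelial markers with little or lower difference were added to show the spread within their lists.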

Additional observations from a re-analysis of the deposited data

How the results depend on the processing

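None of the 10 tested probe sets passed under any of 12 alternatives (offset, filter, normalisation, variance model, Mann-Whitney test, arrays left out, array and dentate marker covariates, array weights), and every estimate stayed below 0, also when each of the 23 mice was left out in turn. Over these settings the lowest adjusted p was 0.125, for Sox11 when the 25th percentile of signal entered the model, and 0.130 for Elavl4 without 2-month replicate 8. Leaving out 1 mouse moved the median difference between -0.26 and -0.20, the number of tested probe sets with a lower 15-month mean stayed at 10, the number called at 0, and the number called over the whole array between 20 and 39. That number was 60 with the 25th percentile in the model. With the 60th-percentile filter 5 probe sets of the 10 were left, of which 5 were lower at 15 months. No paired analysis was possible because replicate numbers only name the mice. The difference of Dcx, -0.20 with all arrays, was -0.31 without the 4 arrays of lowest 99th percentile, again not passing. The number of arrays, and signals near background for Ccnd2 and the dimmer probe sets of Sox11 and Stmn1, limit what could be resolved.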
